A study of Mus musculus with 120 samples.

Results

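The cerebral cortex of 26-week-old knock-in mice was compared with that of wild-type (WT) mice of the same age in a model of spinocerebellar ataxia type 1, an inherited disease in which CAG repeats gained by Atxn1 add glutamines to its protein, ataxin-1. The comparison rests on 7 of the 120 RNA-seq libraries of the series: all 4 cortex libraries of 175Q mice and 3 of the 4 cortex libraries of WT mice, chosen by their labels apart from 1 WT library left out for its content, and it runs across all genes. All mice were C57BL/6J. The 175Q mice carry 1 expanded Atxn1 allele beside a normal one (Atxn1175Q/2Q), in every cell that expresses the gene and from its own promoter, and the WT mice carry no expanded allele. The third genotype of the study, 175QK772T, has a changed nuclear localization signal in the expanded allele, and its 4 cortex libraries of the same age entered the fit to share the estimate of spread. The 4 175Q mice were 2 males and 2 females, and the 3 WT mice were 2 males and 1 female. Sample descriptions give the 26-week line a name with another repeat number than the genotype field, which is used here. Each library is poly(A) RNA of dissected cortex from 1 mouse, so that fewer cells of a type and less RNA per cell cannot be told apart. The design also holds 10-week cortex from other mice, and striatum and hippocampus from the same 26-week mice.

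Ataxin-1 is a mainly nuclear protein that takes part in gene repression, above all in a complex with the repressor Capicua, and the expanded protein is best known for its effect on cerebellar Purkinje cells. The adult cortex is built of layered glutamatergic projection neurons, several classes of GABAergic interneurons and glia. In these cells the genes that patterned the embryo along its axis, such as the Hox genes, are normally silent, and Polycomb complexes, which mark histones, are the textbook machinery of that silence.

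The 7 libraries held totals of 36990276 to 55458350 counts, with counts in 26526 to 27090 genes and a mitochondrial share of 5.18 to 6.28%. Cortical markers were abundant in all 7: Slc17a7, the vesicular glutamate transporter of cortical neurons, was at 1074 to 1106 CPM (counts scaled to a common library size by TMM) in WT and 529 to 604 in 175Q. The fourth WT library, replicate 1, was left out because markers of the medulla, a hindbrain region, were high in it. In that library Slc6a5, the glycine transporter of hindbrain neurons, was at 404 CPM, which is 74.9% of its mean in WT medulla, against 0.0218 to 0.264 in the other WT libraries. With replicate 1 put back, 6275 instead of 9076 genes passed, and 7 of the 15 leading rises lost their call (Lbx1, Hoxb8, Hoxc6, Lhx1, Pou4f1, Hoxc4 and Lhx1os), while all 15 leading falls kept theirs. Among the libraries used, 175Q replicate 1 was high in choroid plexus markers: Ttr was at 612 CPM in it and at 2.81 to 29.95 in the other 6.

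The expression of a large part of the measured genes differed between the genotypes. Of 20239 genes tested with edgeR's quasi-likelihood test, 9076 passed at an adjusted p below 0.05 (44.8%), 4543 of them higher in 175Q (22.4%) and 4533 lower (22.4%). Most changes were small. A fitted fold of at least 2 was reached by 594 higher genes (2.93% of those tested) and 927 lower genes (4.58%), and one of at least 16 by 69 higher (0.341%) and 25 lower genes (0.124%). The even split holds relative to the TMM scaling, under which the median gene changed by 0.012 on the log2 scale. Scaled by total counts alone, an alternative chosen after seeing the data, the median moved by 0.13, to 0.14, and the calls became 7200 higher and 3156 lower. Changes are therefore given relative to the TMM scaling, and differences near that shift have no fixed direction. The values of the 4 175Q libraries and the 3 WT libraries did not overlap in 9263 genes (45.8%). Over the most variable genes of all 11 libraries in the fit, 175QK772T included, the first principal component separated the genotypes and held 64.3% of the variance.

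**Figure D1:**
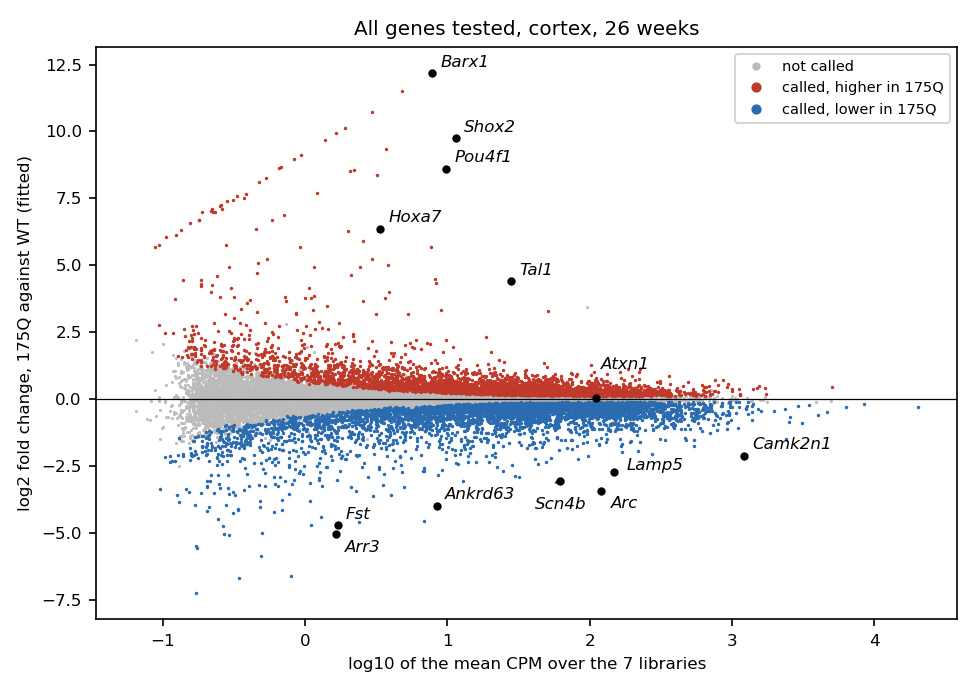
Each point is 1 of the 20239 genes tested, with the log10 of its mean CPM over the 7 libraries on the x axis and the fitted log2 fold change of 175Q against WT on the y axis; red and blue points passed at an adjusted p below 0.05. The largest rises, such as Barx1 and Shox2, lie in the lower part of the range of mean levels, and falls reach abundant genes such as Camk2n1; the straight upper edge is formed by genes with 0 counts in all 3 WT libraries.

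Atxn1 itself (ENSMUSG00000046876, chromosome 13, 45549755 to 45965008, minus strand, GRCm38), the gene that carries the repeat, had levels of 118, 106 and 107 CPM in the WT libraries (replicates 2 to 4) and of 109, 105, 121 and 115 CPM in the 175Q libraries. These ranges overlap, and its log2 fold change (± standard error, here and below) was 0.027 ± 0.061 (adjusted p = 0.751, edgeR's quasi-likelihood test). Scaled by total counts it passed as higher, by 0.16 (adjusted p = 0.0344, edgeR). The counts do not distinguish the normal from the expanded allele. Among the 177 tested genes within 10 Mb of Atxn1, 86 passed (48.6%), near the 44.8% of all genes.

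The largest rises were of genes that pattern the embryo and are next to silent in WT cortex. Of the 15 named, 14 are transcription factors with a homeodomain and 1 is an antisense transcript beside one of them. Barx1, a homeobox gene of the developing stomach and jaw (ENSMUSG00000021381, chromosome 13, 48662998 to 48666507, plus strand, GRCm38), had 0 counts in all 3 WT libraries and was at 14.1, 12.2, 14.9 and 13.8 CPM in the 4 175Q libraries. The rise was at least 674-fold against a floor of 3 counts over the WT group (adjusted p = 1.46e-13, edgeR). Such floors and the counting intervals below cover counting error only. Shox2, a homeobox gene of the limb and the heart's pacemaker, was at 0.0191, 0.0203 and 0.0218 CPM in WT, which are 3 counts in all, and at 17.8, 24.3, 18.3 and 20.2 CPM in 175Q. Its ratio was 989, with an exact 95% counting interval of 338 to 4800.1. Pou4f1, which directs the fate of sensory neurons, was at 0.0574, 0.0407 and 0.0218 CPM in WT and at 15.9, 17.8, 17.2 and 18.1 CPM in 175Q. That is 425-fold, a log2 fold change of 8.61 ± 0.19 (adjusted p = 2.28e-15, edgeR), and the 4 175Q values lie within a narrow band.

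Lbx1, a homeobox gene of dorsal spinal interneurons and migrating muscle precursors, had no count in WT and was at 8.80, 8.84, 7.80 and 8.30 CPM in 175Q, at least 413-fold higher. Vax2, which sets the ventral side of the eye, had none in WT either and reached 3.06, 2.91, 3.59 and 3.86 CPM, at least 166-fold higher. Lhx1, a LIM homeobox gene of kidney and head development, had 1 WT count and was at 6.10, 6.42, 6.15 and 7.15 CPM in 175Q. Its antisense neighbour Lhx1os went with it, at 3.40, 3.88, 3.63 and 3.48 CPM against 1 WT count, and since the strand setting of the 26-week counts is not given in the sources used here, the reads of the pair cannot be told apart. All 4 mutant values of each of these genes lay above all 3 WT values, by the rule that named them.

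The start sites of 3 of these genes and of the 2 leading falls are printed below, picked after their values had been seen. Each line runs from 250 bases before to 50 bases after the RefSeq start (GRCm38.p6), with every CG dinucleotide in capitals. Barx1 (chr13:48662786-48663085, plus strand) holds 50 of them, Pou4f1 (chr14:104467950-104468249, minus strand) 57 and Lhx1 (chr11:84525485-84525784, minus strand) 31. Arr3 (chrX:100605247-100605546, plus strand) holds 0 and Tnfrsf8 (chr4:145315115-145315414, minus strand) 15. Of the other leading rises with a matched start site, Lhx1os with 33 and Hoxd9 with 20 held more than Tnfrsf8. The rest held fewer, with 13 at Hoxb8, 11 at Shox2, 9 at Hoxc4, 9 at Hoxa7 and 6 at Hoxd8. These windows are shown as a description of 5 genes, and no comparison of base composition over all genes that rose or fell is given, because only 64.97% of the genes tested could be matched to a start site and under 80% in each class of fold change.
Barx1: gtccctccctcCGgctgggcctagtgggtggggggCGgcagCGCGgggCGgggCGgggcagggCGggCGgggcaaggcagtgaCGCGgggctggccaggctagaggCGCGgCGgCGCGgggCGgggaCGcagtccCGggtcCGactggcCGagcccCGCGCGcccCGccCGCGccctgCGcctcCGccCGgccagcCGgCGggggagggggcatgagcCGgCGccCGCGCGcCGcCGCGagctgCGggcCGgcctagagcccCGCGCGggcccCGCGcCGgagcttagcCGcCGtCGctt
Pou4f1: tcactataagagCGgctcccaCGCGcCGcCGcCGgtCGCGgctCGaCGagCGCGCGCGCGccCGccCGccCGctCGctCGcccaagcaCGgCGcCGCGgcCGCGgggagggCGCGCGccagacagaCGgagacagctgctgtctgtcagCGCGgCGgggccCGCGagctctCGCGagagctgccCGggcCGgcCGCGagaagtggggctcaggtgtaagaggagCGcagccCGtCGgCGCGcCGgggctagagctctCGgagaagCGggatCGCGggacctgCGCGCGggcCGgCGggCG
Lhx1: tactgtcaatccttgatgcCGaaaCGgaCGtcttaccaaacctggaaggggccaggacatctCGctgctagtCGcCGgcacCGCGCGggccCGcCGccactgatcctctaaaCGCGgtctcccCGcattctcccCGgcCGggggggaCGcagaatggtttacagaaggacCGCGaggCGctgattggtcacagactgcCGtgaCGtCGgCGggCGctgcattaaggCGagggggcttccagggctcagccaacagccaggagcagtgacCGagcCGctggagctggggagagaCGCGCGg
Arr3: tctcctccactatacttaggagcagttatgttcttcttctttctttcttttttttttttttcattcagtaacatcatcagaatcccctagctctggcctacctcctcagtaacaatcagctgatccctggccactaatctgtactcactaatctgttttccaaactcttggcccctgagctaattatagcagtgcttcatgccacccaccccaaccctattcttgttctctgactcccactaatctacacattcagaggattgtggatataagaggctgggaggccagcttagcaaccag
Tnfrsf8: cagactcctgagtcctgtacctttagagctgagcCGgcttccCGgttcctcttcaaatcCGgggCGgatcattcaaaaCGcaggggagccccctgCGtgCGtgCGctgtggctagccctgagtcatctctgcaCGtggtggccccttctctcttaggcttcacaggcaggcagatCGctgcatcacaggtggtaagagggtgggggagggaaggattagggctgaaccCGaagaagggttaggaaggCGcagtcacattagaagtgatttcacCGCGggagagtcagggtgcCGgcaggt

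The Hox genes, which lie in 4 clusters and mark position along the trunk and hindbrain, were described as a family after their values had been seen. Summed over all 39, the WT libraries held 12, 19 and 11 counts and the 175Q libraries 1463, 1783, 2235 and 2249. In 175Q, 35 of the 39 genes had at least 1 count, in WT 11, and 24 genes had counts in 175Q only. The 24 that passed the filter on low counts did so through mutant libraries, so that their call as higher in all 24 cases is a description. All 4 clusters contributed: 1556 counts in 175Q against 12 in WT came from cluster A, 2737 against 11 from cluster B, 2084 against 2 from cluster C and 1353 against 17 from cluster D. Within a cluster the counts were uneven. In cluster A, Hoxa7 alone held 1054 of them, at 0.0766, 0.0203 and 0.109 CPM in WT and 5.58, 5.62, 5.75 and 6.57 in 175Q. In cluster B, Hoxb8 was at 4.83, 4.50, 6.15 and 5.08 CPM and Hoxb9 at 4.85, 5.84, 5.91 and 5.97 CPM in 175Q, with 0 and 2 WT counts. In cluster C, Hoxc8 was at 2.73, 2.80, 2.79 and 3.20 CPM in 175Q with 0 WT counts, and Hoxc4 and Hoxc6 were at 3.22 to 4.22 and 2.07 to 2.73 CPM. In cluster D, Hoxd8 was at 3.24, 2.82, 3.07 and 4.88 CPM and Hoxd9 at 2.05, 1.32, 2.26 and 2.93 CPM in 175Q. Hoxa11, Hoxc11 and Hoxc12, near the 5′ ends of their clusters, had no count in any of the 7 libraries, and neither had Hoxb1, at the 3′ end of its own. Over the 4 175Q libraries Hoxa13, Hoxb13, Hoxc13 and Hoxd13 had 4, 16, 8 and 11 counts. Other members of the 5′ part of the clusters varied widely. Hoxa10 and Hoxd12 had 6 counts each, Hoxa9 17 and Hoxd11 24. Higher counts were those of Hoxc10 with 104, Hoxd10 with 120, Hoxc9 with 148, Hoxd9 with 384 and Hoxb9 with 1017. Hoxd1 was the exception in direction, with 10 WT and 8 175Q counts. Genes of 1 cluster overlap in part, and how the counting shared reads among them at 26 weeks is not given in the sources used here.

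**Figure D2:**
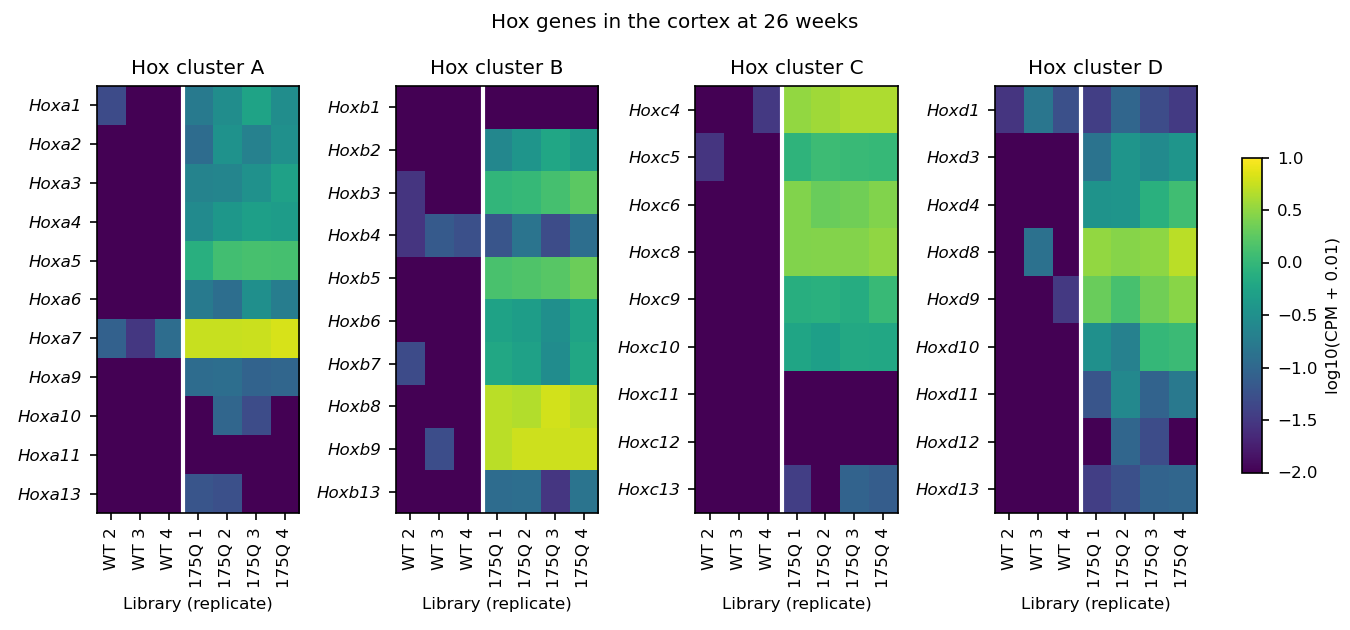
Rows are the 39 Hox genes by cluster, columns the 3 WT and 4 175Q cortex libraries, and the colour is log10(CPM + 0.01). WT columns are near the floor throughout, and the 175Q columns are alike, with the highest levels at Hoxa7, Hoxb8, Hoxb9, Hoxc4, Hoxc6, Hoxc8 and Hoxd8.

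The summed level of the Hox genes, which can also mark hindbrain tissue, was 0.230 to 0.387 CPM in WT and 37.97 to 49.9 CPM in 175Q. Of a list of 12 medulla markers, 9 of them Hox genes, 10 were tested and rose. The list's summed level was 1.55 to 2.37 CPM in WT and 13.2 to 18.7 in 175Q. None of the 10 kept its call with WT replicate 1 added. That library was left out because medulla markers were high in it. Their loss was therefore fixed in advance and does not measure how firm the rises are. Slc6a5 was at 0.0957, 0.265 and 0.0218 CPM in WT and 3.37, 4.52, 5.07 and 3.66 CPM in 175Q (log2 fold change 4.94 ± 0.41, adjusted p = 2.46e-08, edgeR). Tph2, the serotonin-making enzyme of raphe neurons, was at 2.24, 1.53 and 1.46 CPM in WT and 2.65, 3.33, 3.53 and 2.73 in 175Q. Set against the mean of WT medulla of the same age, the 175Q mean was 0.567% for Hoxb4, 0.770% for Slc6a5, 2.35% for Hoxa5 and 15.2% for Hoxc4. Hoxc9, Hoxc10, Hoxd10 and Hoxd11 were at 0 CPM in WT medulla and had 148, 104, 120 and 24 counts in the 4 175Q cortex libraries, and Hoxc8 was at a mean of 0.0147 CPM in WT medulla. The part of hindbrain tissue in the Hox levels was not tested.

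Other patterning factors rose with the Hox genes, and several of them had a measurable level in WT. Tal1, a factor of blood formation and of midbrain and spinal GABAergic neurons, was at 2.01, 2.38 and 2.22 CPM in WT and at 46.5, 44.4, 47.6 and 49.9 CPM in 175Q (log2 fold change 4.39 ± 0.093, adjusted p = 1.24e-15, edgeR). It was among the 10 calls of smallest p. Pax2, which acts at the midbrain-hindbrain border and in the kidney, was at 0.0957 to 0.346 CPM in WT and 12.6 to 13.9 in 175Q; its call was lost with WT replicate 1 added (adjusted p = 0.156, edgeR). Twist1, a mesoderm factor, was at 0.345 to 0.871 and 12.3 to 15.2 CPM, En2, an engrailed gene of the midbrain-hindbrain border, at 0.383 to 0.849 and 13.2 to 15.2 CPM, and Wt1, a kidney and gonad factor, at 0.109 to 0.345 and 4.93 to 7.88 CPM. In a list of 22 developmental transcription factors that was chosen with earlier results of these data known, 15 were tested, 14 rose, none fell and Irx3 did not pass; 7 were too low to test, and 8 rose with WT replicate 1 added. Of the 69 genes with a fitted fold of at least 16, 49 belong to families of developmental transcription factors, read from their symbols after the values had been seen (71.0%), against 193 of all genes tested (0.954%). Of those 193, 88 rose and 40 fell, beside 22.4% of all genes tested in each direction. Among the 92 members below 1 CPM in WT, 67 rose. Among the 101 at 1 CPM or more in WT, 21 rose and 36 fell. Members low in WT could enter the test through the mutant libraries alone, so that these counts are a description.

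**Figure D3:**
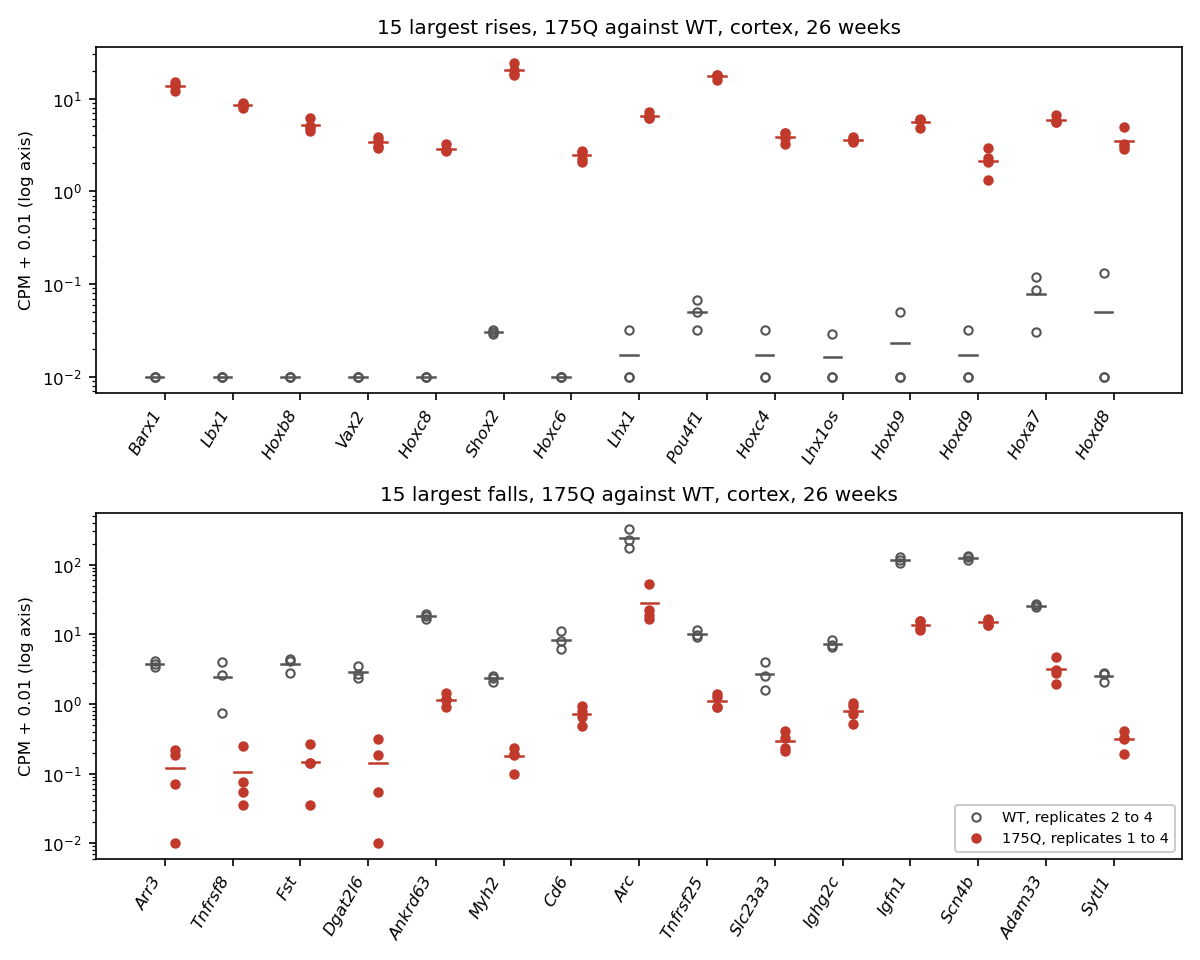
CPM + 0.01 on a log axis in each library for the 15 largest rises (top) and the 15 largest falls (bottom); open points are WT replicates 2 to 4, filled points 175Q replicates 1 to 4, and short lines are group means. The groups do not overlap in any of the 30 genes, by the rule that chose them, and 6 of the rises start from 0 counts in WT.

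The largest falls were a mixed set of genes, most of them at a few CPM in WT. Arr3, the arrestin of cone photoreceptors (ENSMUSG00000060890, chromosome X, 100605497 to 100618493, plus strand, GRCm38), was at 3.69, 3.36 and 4.14 CPM in WT and 0.208, 0.176, 0.0599 and 0 CPM in 175Q, 35.1-fold lower (log2 fold change -5.03 ± 0.39, adjusted p = 8.62e-09, edgeR). Fst, the activin-binding protein follistatin, was at 4.17, 2.81 and 4.36 CPM in WT and 0.0260, 0.132, 0.259 and 0.133 CPM in 175Q, and Tnfrsf8, the CD30 receptor, at 0.727, 3.99 and 2.59 and 0.0260, 0.0661, 0.240 and 0.0444 CPM. WT replicate 2 was the lowest WT library for Tnfrsf8 and still above every 175Q library. Ankrd63, an ankyrin-repeat protein, went from 16.5 to 19.4 CPM in WT to 0.882 to 1.42 in 175Q. Among abundant genes, Arc, the activity-induced protein of dendrites, was at 229.5, 174 and 326 CPM in WT and 16.8, 22.3, 19.1 and 53.4 CPM in 175Q. The highest 175Q value, in replicate 4, was below the lowest WT value. Scn4b, the β4 subunit of voltage-gated sodium channels, was at 117, 128 and 132 CPM in WT and 13.4, 16.6, 13.6 and 15.9 CPM in 175Q (log2 fold change -3.09 ± 0.08, adjusted p = 8.96e-15, edgeR). Igfn1, an immunoglobulin-like and fibronectin domain protein, was at 107 to 128 CPM in WT and 11.6 to 15.6 in 175Q, and Adam33, a membrane metalloprotease, at 24.6 to 26.9 and 1.92 to 4.71 CPM. The other 7 named falls were Dgat2l6, Myh2, Cd6, Tnfrsf25, Slc23a3, Ighg2c and Sytl1, with log2 fold changes of -4.42 to -3.04 from WT levels of 1.57 to 11.6 CPM. Cd6 of T cells and Ighg2c of antibodies are genes of blood cells, and haemoglobin and haem-synthesis genes, taken as a blood list of 5, were also lower, at a summed 108 to 165 CPM in WT and 74.00 to 82.3 in 175Q; the part of blood left in the tissue was not tested.

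Of the 10 calls of smallest p, Tal1 and Pou4f1 rose and the other 8, Scn4b among them, fell. Camk2n1, an inhibitor of the kinase CaMKII, was at 2053, 2148 and 2259 CPM in WT and 498, 483, 520.2 and 491 CPM in 175Q (log2 fold change -2.12 ± 0.044, adjusted p = 1.24e-15, edgeR). Camk2a, the kinase itself, was at 3461, 4116 and 3852 and 1308, 1315, 1473 and 1341 CPM, and Camkk2, a kinase upstream of other calmodulin-dependent kinases, at 357 to 376 and 113 to 126 CPM. All 3 fell by more than 2-fold with no overlap. Lamp5, a vesicle protein that marks a class of interneurons and is also made by upper-layer projection neurons, was at 304, 263 and 299.7 CPM in WT and 45.8, 40.6, 45.7 and 42.3 CPM in 175Q. Arpp19, a regulator of protein phosphatase 2A, had 372, 370.2 and 393 CPM in WT and 100.2, 104, 94.7 and 89.4 in 175Q. The log2 fold changes of Rph3a, a synaptic vesicle protein, Olfm1, a secreted olfactomedin, and Tyro3, a receptor tyrosine kinase, were -1.53 ± 0.037, -1.55 ± 0.043 and -1.67 ± 0.049, and their adjusted p values by edgeR were at most 4.69e-14.

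Markers of cortical neurons fell across layers and transmitter classes. The lists below were chosen with earlier results of these data known, and their counts stand beside the background of 22.4% in each direction and a median of 0.012 for all genes. Of 12 upper-layer markers 11 fell and none rose (median log2 fold change -0.64), and 1 did not pass. Rspo1, a secreted Wnt agonist, was at 18.9, 16.5 and 17.8 CPM in WT and 2.54, 2.95, 2.81 and 3.20 CPM in 175Q, whereas Cux1 and Cux2, homeobox genes of layers II to IV, changed by -0.66 ± 0.075 and -0.46 ± 0.063. Of 16 deep-layer markers 14 fell (median -0.87). Tbr1, a factor of layer VI neurons, was at 142, 134 and 142 CPM in WT and 70.6, 70.7, 73.9 and 67.2 CPM in 175Q, and Cplx3, a complexin of subplate-derived neurons, at 20.5, 21.1 and 22.4 and 3.17, 4.87, 4.21 and 4.13 CPM. Of 12 glutamatergic markers 10 fell and 1 rose, or 2 rose without WT replicate 2 or without 175Q replicate 2. The riser in the full set was Slc17a6, the vesicular transporter that prevails in subcortical neurons (0.47 ± 0.092), while the cortical Slc17a7 was at 1087, 1106 and 1074 CPM in WT and 565, 529, 604 and 573 CPM in 175Q. With WT replicate 1 added 5 glutamatergic markers passed as lower, and Slc17a7 (adjusted p = 0.166) and Tbr1 (adjusted p = 0.292, edgeR) were lost. Of 16 GABAergic markers 15 fell and 1 rose (median -0.88). Gad1, which makes GABA, was at 407, 359 and 371 CPM in WT and 188, 195, 204 and 190.5 CPM in 175Q, and each of the interneuron class markers Pvalb (-1.08 ± 0.10), Sst (-1.18 ± 0.081) and Vip (-1.27 ± 0.08) was about as far down. The gene that rose was Dlx1, a homeobox gene of interneuron development (0.71 ± 0.073). Genes that lead in striatum went the same way, with 9 of 12 lower and a summed level of 387 to 437 CPM in WT and 164 to 179.8 in 175Q, and 2 that define it, Adora2a and Pde10a, did not pass. Pde10a was at 144, 81.3 and 76.2 CPM in WT replicates 2, 3 and 4, the highest in replicate 2.

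Most markers of each glial class fell, and most vessel markers did not pass. All 14 astrocyte markers fell (median -0.52), led by the glutamate transporter Slc1a2 at 4068, 4348 and 4303 CPM in WT and 2147, 2294, 2359 and 2172 CPM in 175Q. The number that fell was 11 when scaled by total counts, 11 with WT replicate 1 added and 13 without 175Q replicate 4. Glul, the glutamine synthetase of astrocytes, had a log2 fold change of -0.80 ± 0.048, and Gfap, which rises in reactive astrocytes, one of -0.28 ± 0.088 (adjusted p = 0.0151, edgeR). Of 12 oligodendrocyte and myelin markers 11 fell (median -0.37), or 7 when scaled by total counts, and of 10 precursor markers 7 (median -0.39). The summed level of the 12 myelin markers was 5496 to 6792 CPM in WT and 4329 to 5158 in 175Q, so that the groups lie close together. Of 12 microglial markers 8 fell (median -0.31), among them the complement genes C1qa (-0.44 ± 0.076) and C1qb (-0.42 ± 0.061); the count was 4 when scaled by total counts, 5 without WT replicate 3 and 3 with WT replicate 1 added. Of 12 vessel markers 4 fell and 8 did not pass (median -0.12). Meningeal fibroblast markers gave 1 rise in 10 (Ogn, 0.50 ± 0.18), lost without WT replicate 2 or without 175Q replicate 2 or 3 (adjusted p = 0.144, 0.131 and 0.0811, edgeR). The meningeal rises became 3 without WT replicate 4, 2 without 175Q replicate 4, 3 when scaled by total counts and 4 with no low-count filter. Ependymal markers gave no call in 7; 2 of the 7 passed as lower without WT replicate 4 or without 175Q replicate 1. Of 11 choroid plexus markers 2 passed as higher, Sostdc1 (1.95 ± 0.37) and Kcne2 (2.31 ± 0.66), and Kcne2 lost its call without WT replicate 2 or 4 (adjusted p = 0.0505 and 0.0518, edgeR). The number of higher choroid plexus markers was 4 without WT replicate 3 or without 175Q replicate 4, 10 with no low-count filter and 0 with WT replicate 1 added, and without 175Q replicate 1 there were 2 higher and 2 lower. The list's summed level was 12.2 to 44.8 CPM in WT and 11.996 to 669.9 in 175Q, and its top value was that of 175Q replicate 1. Without that library Ttr turned from 3.45 to -1.98 on the log2 scale.

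Genes of the synapse fell on both of its sides. Of 15 presynaptic vesicle genes tested, 13 fell and 1 rose (median -0.81). Snap25, a core protein of vesicle fusion, was at 3465, 3319 and 3387 CPM in WT and 1914, 1864, 1784 and 1787 CPM in 175Q, and Cplx2, a complexin that clamps fusion, at 1289, 1391 and 1344 and 604, 618, 629 and 590.3 CPM. Both groups were tight and far apart. Sv2a, another vesicle protein, was the one that rose (0.15 ± 0.045). Of 16 metabotropic glutamate receptors and postsynaptic scaffolds 15 fell (median -0.66). Grm2, an inhibitory presynaptic receptor, was at 56.7, 63.4 and 63.3 CPM in WT and 19.3, 15.1, 19.8 and 15.6 CPM in 175Q, and Dlg4, the scaffold PSD-95, at 648, 709 and 682 and 409.8, 387, 470.3 and 443 CPM. Homer1, a scaffold with an activity-induced short form, had a log2 fold change of -1.63 ± 0.14. Of 16 ionotropic glutamate receptor genes 11 fell and 1 rose (median -0.37). The NMDA receptor subunit gene Grin2a was at 266, 218 and 243 CPM in WT and 101, 113, 113 and 112 CPM in 175Q, while Grin2d, a subunit of early development and of interneurons, rose (0.59 ± 0.074). Gria2, the AMPA receptor subunit that limits calcium entry, had -0.0043 ± 0.045 (adjusted p = 0.949, edgeR). Of 12 GABA-A receptor subunit genes 9 fell and 1 rose. Gabrd, whose δ subunit carries tonic inhibition, led at 72.02, 76.7 and 83.8 CPM in WT and 21.1, 22.2, 23.7 and 22.4 CPM in 175Q. With WT replicate 1 added, 2 GABA-A genes and 9 of the metabotropic and scaffold genes passed as lower.

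Ion channel genes followed the same direction with a few risers. Of 24 potassium channel genes 21 fell, 3 did not pass and none rose (median -0.73). Kcnv1, a silent subunit that modifies Kv2 channels, was at 119.6, 118 and 125 CPM in WT and 42.9, 43.4, 40.7 and 36.8 CPM in 175Q, and Kcnh4, an Elk channel, at 34.99, 33.7 and 40.9 and 7.06, 7.56, 6.53 and 7.23 CPM. Kcnc1, the fast Kv3 channel of parvalbumin cells, had a log2 fold change of -1.01 ± 0.059. Of 19 sodium and calcium channel genes 12 fell and 4 rose. The risers were Scn3a, the sodium channel of the fetal brain, at 55.5, 53.5 and 51.99 CPM in WT and 91.9, 98.00, 87.3 and 81.6 CPM in 175Q, its partner gene Scn3b (0.47 ± 0.056), Scn2a (0.28 ± 0.044) and Cacna1b (0.34 ± 0.055); scaled by total counts 7 rose, and with WT replicate 1 added 6 fell. Scn8a, of the adult sodium channel, fell (-0.51 ± 0.04).

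Secreted neuronal factors and activity-induced genes had the lowest medians of all lists. Of 17 neuropeptide and secreted factor genes tested 15 fell and 1 rose (median -1.43). Cck, which encodes cholecystokinin, was at 176, 204 and 183 CPM in WT and 69.9, 60.7, 74.9 and 71.1 CPM in 175Q. Npy was at 63.8, 74.4 and 74.00 and 22.1, 16.2, 22.8 and 20.6 CPM, and Bdnf, the growth factor of cortical neurons, at 32.3, 25.9 and 26.6 and 11.4, 9.61, 10.3 and 9.83 CPM. Pdyn, which encodes the dynorphin precursor, and Nptx2, a secreted pentraxin that gathers AMPA receptors, fell further, with log2 fold changes of -2.43 ± 0.13 and -2.71 ± 0.15. The riser was Nts, neurotensin, at 0.174 to 0.383 CPM in WT and 0.727 to 0.958 in 175Q, and Scg2 did not pass. Of 16 immediate early genes 15 fell and Jun did not pass (median -1.38). Egr3 was at 199, 169 and 149 CPM in WT and 39.9, 36.9, 40.4 and 43.7 CPM in 175Q. Fos was more variable, at 29.98, 14.3 and 43.1 CPM in WT and 6.85, 9.81, 5.59 and 24.1 CPM in 175Q; its groups overlap, since 175Q replicate 4 was above WT replicate 3. That 175Q library was also the highest of the 4 for Arc, Egr1, Nr4a1 and Junb. With WT replicate 1 added, 5 of the 16 fell.

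The targets of Capicua, the repressor that binds ataxin-1, were lower. Of 14 genes of a list of Capicua targets and feedback genes of the MAP kinase pathway, 13 fell, none rose and Ptpn9 did not pass (median -0.73). Etv5, an ETS factor and one of the best known targets, was at 153.8, 129 and 115 CPM in WT and 54.01, 57.3, 60.7 and 57.3 CPM in 175Q, and Etv4, its relative, at 12.9, 12.4 and 12.4 and 5.84, 6.35, 7.05 and 6.79 CPM. Dusp6, the phosphatase that switches off ERK, was at 74.05, 64.1 and 76.96 CPM in WT and 24.5, 21.7, 22.6 and 28.5 CPM in 175Q. The inhibitors Spry2 and Spry4 changed by -0.75 ± 0.072 and -0.64 ± 0.13, and Ccnd1, a cyclin, by -1.01 ± 0.078. Several of these genes, Etv1 and Dusp6 among them, are also neuronal or activity-induced, and the part of those programmes was not tested. Cic, which encodes Capicua, was itself near equal at 0.0066 ± 0.05 (adjusted p = 0.930, edgeR). Of 16 genes tested in a list of Atxn1 itself, its partners and its paralog, 2 rose, 4 fell and 10 did not pass, and with scaling by total counts 9 rose. Nlk, a kinase that binds ataxin-1, fell from 155, 144 and 146 CPM in WT to 73.2, 76.02, 70.1 and 68.9 CPM in 175Q. Atxn1l, the paralog, rose by 0.25 ± 0.051.

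Polycomb genes themselves changed little and in part upward. Of 18 genes of the repressive complexes 8 rose, 3 fell and 7 did not pass (median 0.20). Scaled by total counts 11 rose and 1 fell, and with WT replicate 1 added 8 rose and 1 fell. Cbx8, which encodes a chromodomain reader of the histone mark, was at 10.1, 9.30 and 10.3 CPM in WT and 15.1, 14.5, 15.1 and 17.4 CPM in 175Q. The core PRC1 genes Bmi1 and Rnf2 rose by 0.45 ± 0.049 and 0.41 ± 0.057. Cbx6, another of the reader genes, fell from 479, 511 and 514 CPM in WT to 333, 312, 360.1 and 338 CPM in 175Q. Of the PRC2 core, Suz12 rose (0.39 ± 0.057), while Ezh2 (0.11 ± 0.097) and Eed (0.025 ± 0.065) did not pass.

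Most genes of cholesterol synthesis and of the circadian clock fell. Of 16 cholesterol synthesis genes 14 fell and 1 rose (median -0.47). The riser was Lss (0.15, adjusted p = 0.0427, edgeR), and no gene of the list rose without WT replicate 2 or 4, without 175Q replicate 1, 3 or 4, with RLE scaling, with no low-count filter, with no sex term, in the 7 libraries alone or with WT replicate 1 added. Hmgcs1, which makes HMG-CoA, was at 336, 324 and 308 CPM in WT and 205, 212, 199.8 and 206 CPM in 175Q. Of 13 circadian clock genes 10 fell and 2 rose, Cry1 among the risers (0.84 ± 0.064) and Nr1d1 and Dbp among those that fell (-0.95 ± 0.081 and -0.95 ± 0.11); the median was -0.59, the rises became 1 when any 1 of the 7 libraries was left out, and with WT replicate 1 added 6 fell. The time of day of tissue collection is not given in the sources used here. Chaperone genes split, with 5 of 14 higher and 4 lower. The abundant cytosolic Hsp90aa1 rose from 790.1, 747 and 697 CPM in WT to 1085, 1147, 1048 and 1067 CPM in 175Q and Hspa8 by 0.50 ± 0.045, while the small chaperone gene Cryab fell, with a log2 fold change of -0.78 ± 0.068. Of 16 nuclear genes of oxidative phosphorylation 3 rose and 4 fell, (2 fell without WT replicate 4), within log2 fold changes of -0.23 to 0.17, and with scaling by total counts 5 rose and none fell. Interferon response genes gave 2 rises and 1 fall in 13, with 1 to 4 rises when 1 library was left out, glucocorticoid response genes 4 rises and 6 falls in 12 (3 falls when scaled by total counts), and genes of amyloid precursor processing 1 rise and 4 falls in 13, or 9 rises and 2 falls when scaled by total counts. App itself was at 1577, 1505 and 1502 CPM in WT and 1245, 1271, 1284 and 1313 CPM in 175Q. Lists of hippocampal and thalamic markers, other tissue that a cortex dissection could include, gave 2 rises and 4 falls in 8 and no rise and 4 falls in 6; the thalamic falls became 2 without WT replicate 3 or 4 or without 175Q replicate 4, and the hippocampal rises 1 without WT replicate 2 or 3 or without 175Q replicate 2 or 4.

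**Figure D4:**
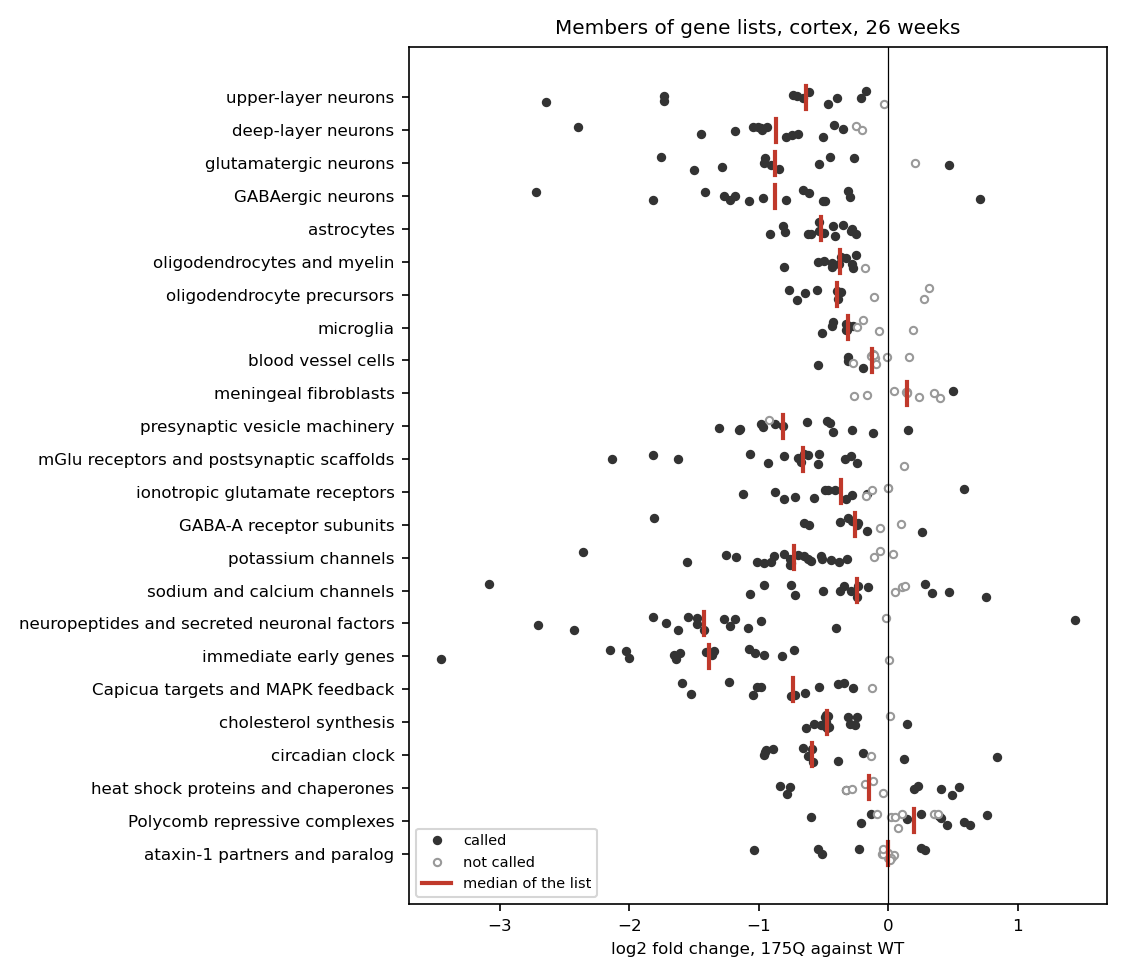
The x axis is the log2 fold change of 175Q against WT, each point is a tested gene of the list named on the y axis, filled if it passed, and red bars are list medians. The medians of the neuronal, synaptic and channel lists lie left of 0, those of neuropeptides and immediate early genes farthest, and the Polycomb and meningeal medians lie to the right.

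The same contrast in other mice at 10 weeks asks how much of this was present earlier. In the joint fit of both ages, 7712 of 22523 genes passed at 10 weeks (34.2%), 3744 higher (16.6%) and 3968 lower (17.6%). Of the 9076 calls at 26 weeks, 5656 also passed in the same direction at 10 weeks (62.3% of the 26-week calls and 75.4% of the 7504 10-week calls tested at both ages), and 75 passed in opposite directions. The fold changes of the 20239 genes tested at both ages had a Pearson r of 0.708, a description across genes, which are not independent. The ages share no mouse, but each was prepared and sequenced as a batch of its own, so genotypes are compared within an age only. Of the 15 leading rises 13 had passed at 10 weeks in the same direction, all but Hoxb9 and Lhx1os, and so had all 15 leading falls. Pou4f1 was already high at 10 weeks (log2 fold change 6.42 ± 0.24) and Barx1 had 359 counts in the 4 175Q libraries against 0 in WT. The Hox genes had fewer counts at 10 weeks: over 4 libraries of greater depth they held 819 counts in 175Q and 67 in WT, 11 of 25 tested had risen, and 24 of the 39 had a count in 175Q.

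The difference between the ages was tested directly and passed in 2237 genes (9.93%). In 1551 of them the change was larger at 26 weeks in the same direction, in 80 smaller, and in 606 the sign differed. The 5 genes of smallest p among those named or listed were all neuronal genes that fell further. Camk2n1 went from -1.35 at 10 weeks to -2.12 at 26 weeks (difference -0.76 ± 0.061, adjusted p = 1.06e-08, edgeR). Arpp19 went from -0.97 to -1.95 and Ddn, a postsynaptic cytoskeletal protein, from -0.89 to -1.75. Olfm1 and Camk2a had differences of -0.69 and -0.58. With WT replicate 1 added only 449 differences passed, and none of these 5. Among the rises, Lbx1 (difference adjusted p = 0.00159), Lhx1 (0.0142), Shox2 (0.0371) and Tal1 (6.29e-06, all by edgeR) had a larger fitted fold at 26 weeks. At that age Lbx1 was at 0 CPM in WT, Lhx1 at a mean of 0.00726 and Shox2 at 0.0204, so that the sizes of their differences lean on few WT counts. For genes such as Barx1 and Vax2, without a WT count at either age, no difference of fold changes can be estimated. Fewer members of some lists had passed at 10 weeks: 4 of 17 immediate early genes had fallen at 10 weeks against 15 of 16 at 26 weeks, none of 12 microglial markers against 8 and 8 of 14 Capicua targets and feedback genes against 13. Other lists had as many or more: all 14 astrocyte markers had fallen at both ages, 8 of 12 vessel markers at 10 weeks against 4 at 26 weeks, and 10 of 18 Polycomb genes had risen against 8. The difference was not tested for these lists as wholes. Adam33 had the larger fall at 10 weeks, from -3.98 at 10 weeks to -3.08 at 26 weeks (adjusted p of the difference = 0.0120, edgeR).

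**Figure D5:**
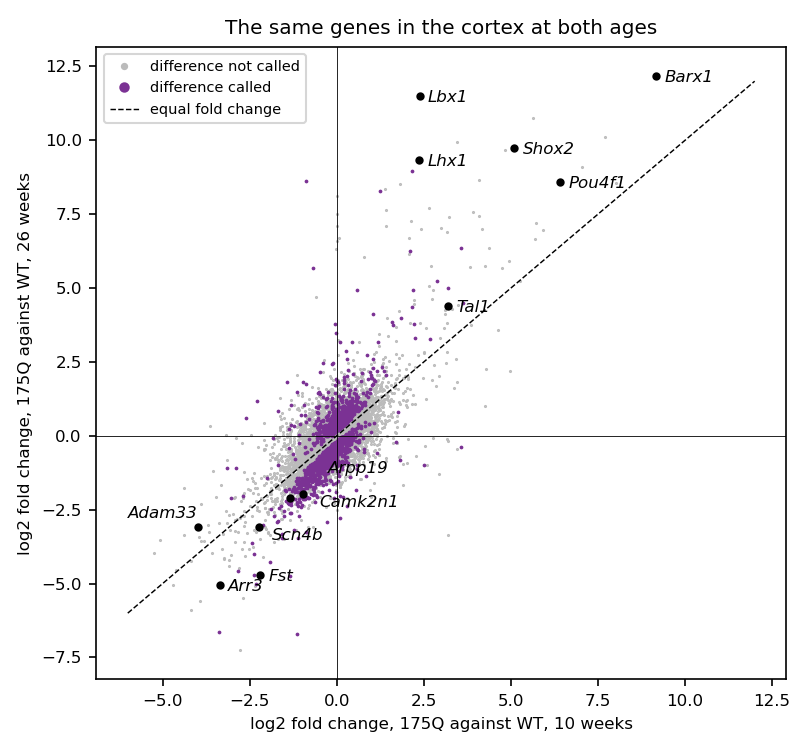
Each point is a gene tested at both ages, with the log2 fold change of 175Q against WT at 10 weeks on the x axis and at 26 weeks on the y axis; purple points passed the test of the difference, and named genes are black. Most named genes lie beyond the dashed line of equal change on the side of the larger change at 26 weeks, Adam33 on the other.

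Striatum and hippocampus of the same 11 mice show which of the changes were larger in the cortex. The 175Q effect differed between cortex and striatum in 1711 genes (8.09%) and between cortex and hippocampus in 1578 (7.47%), with the mouse as a block. Without WT replicate 2 or 4 these counts were 847 and 851 for striatum and 985 and 1049 for hippocampus. In those regions fitted alone, 42.7% of genes passed in striatum and 36% in hippocampus. All 15 leading rises passed in the same direction in both. Pou4f1 rose more in cortex (8.61) than in striatum (6.15, adjusted p of the difference = 0.0127) and hippocampus (4.49, adjusted p = 8.10e-06, edgeR). Shox2 and Lhx1 also had a larger fitted fold in cortex than in hippocampus, by differences of 5.82 and 7.57 (adjusted p = 7.03e-05 and 4.69e-06, edgeR). The WT means of Pou4f1, Shox2 and Lhx1 in cortex were 0.0400, 0.0204 and 0.00726 CPM. Their differences therefore lean on few WT counts and do not compare the levels of mutant RNA between regions. Of the leading falls, 12 of 14 tested passed in striatum and 12 of 15 in hippocampus. Adam33 was the clearest cortical one, at -3.08 in cortex, 0.097 in striatum and 0.025 in hippocampus, with adjusted p values of 0.00518 and 2.79e-06 for the 2 differences. Camk2n1 fell more in cortex (-2.12) than in hippocampus (-1.24) and less than in striatum (-2.86), and Arpp19 had the same order. Adora2a and Pde10a, of striatal projection neurons, fell by 3.75 and 2.74 on the log2 scale in striatum and did not pass in cortex. Homer3, a postsynaptic scaffold, had a log2 fold change of -1.76 in hippocampus and of 0.12 in cortex, where it did not pass. Scn3b passed in opposite directions, at 0.47 in cortex and -0.63 in hippocampus. Scn4b, Gabrd and Kcnj4 fell less in cortex than in striatum, by differences of 2.79, 1.11 and 1.28 on the log2 scale.

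The 175QK772T mice share the WT libraries, so their levels are given side by side without a comparison of fold changes. For 13 of the 15 leading rises their median lay above every WT and below every 175Q value, as for Pou4f1 with a median of 11.1 CPM and Tal1 with 34.1 CPM. For 14 of the 15 leading falls it lay between the groups, as for Scn4b with 31.2 CPM and Arc with 133 CPM. The exceptions were Hoxc4, Hoxc6 and Adam33.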

How the data were processed

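Poly(A) RNA of 5 brain regions of mice was sequenced in paired ends on a NovaSeq, per the labels' protocols, in separate batches for 10 and 26 weeks. The authors deposited whole-number read counts per gene, not normalized. The submitters' processing notes name bcl2fastq 2.20.0, Trimmomatic 0.33, HISAT2 2.1.0, Subread 1.6.2 with featureCounts, and GRCm38. The 10-week counting took reverse-stranded pairs, per the file headers, with a mapping quality of at least 10 and Ensembl release 97; strand and quality settings of the 26-week counts are not given in the sources used here. All 120 sample columns were matched to labels and 0 were left unmapped.

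Counts were tested with edgeR 4.0.16 (R 4.3.3): TMM scaling, filterByExpr, quasi-likelihood fits of genotype and sex to 11 cortex libraries, and Benjamini-Hochberg adjustment over all genes tested, with calls at an adjusted p below 0.05. Differences between ages and regions are interaction terms, those between regions with the mouse as a block. Alternatives were DESeq2 1.42.0, RLE scaling, other low-count filters, no sex term, a replicate block, other sets of libraries, leaving out each library, and, added after seeing the data, scaling by total counts. An exact permutation test of 4 against 3 libraries cannot go below a two-sided p of 0.0571.

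On simulated counts of 19930 genes with 50 genes changed at each fold, the test of 175Q against WT recovered 42, 78, 94 and 100% of changes of 1.25, 1.5, 2 and 4-fold, and 13 of its 170 calls were false. In the simulation the smaller changes were missed in part. Far fewer genes were changed there than the 44.8% that passed in the data, which makes the adjusted threshold stricter. The changed genes also had a mean of at least 1 CPM, so these shares do not carry over directly to the data. The members and gene lists were chosen with earlier results of these data known. Named genes are Atxn1; the 15 largest rises and falls that were called, reached 1 CPM on average and had groups without overlap; the 10 calls of smallest p; up to 4 leading members of each of 38 lists, and any member of a list that is described; and the 5 leading genes of each difference test. Some members of the lists are not reported here by name. Genes of chromosome Y, Xist, Tsix and unnamed or provisional symbols were not named. The Hox family and the transcription factor families were added after the values had been seen. No 2 libraries of a group were copies: chi-square per gene was 6.28 to 24.1. Promoters come from RefSeq, whose table held 13150 of the 20214 tested genes with a symbol.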

Additional observations from a re-analysis of the deposited data

Results flagged for a closer look

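Of 181 genes with values in 4 175Q libraries that were examined, 15 had 1 library far from the other 3 (8.29%). Chance gives about 1 in 20 for a single gene. The genes share the same 4 libraries and are not independent, so the 2 shares do not test for an excess. Replicate 4 was high for Hoxc8 at 3.20 CPM (others 2.73 to 2.80), Hoxa7 at 6.57 CPM, Arc at 53.4 CPM (others 16.8 to 22.3) and Nr4a1 at 74.7 CPM (others 41.2 to 41.8). Arc and Nr4a1 are both induced by neuronal activity. Replicate 1 was high for the choroid plexus genes Ttr at 612 CPM (2.81 in replicate 3), Kcne2 at 2.41 CPM and Kcnj13 at 4.13 CPM, and for Cox5a of the respiratory chain at 84.3 CPM. It was low for Hoxb9 at 4.85 CPM and Grin2a at 100.5 CPM. Replicate 3 was low for the ciliary genes Foxj1 at 2.67 CPM and Ccdc153 at 0.180 CPM (others 0.954 to 1.06), and high for Baiap2 at 140.3 CPM and Grin2c at 38.004 CPM. Replicate 2 was high for Igfbp5 at 128 CPM (others 92.3 to 97.2).

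The 175Q effect differed by age in 2237 genes, between cortex and striatum in 1711 and between cortex and hippocampus in 1578, each by an interaction term; without WT replicate 2 the regional counts were 847 and 985, and without WT replicate 4 they were 851 and 1049. The age differences of the leading genes were -0.76 for Camk2n1, -0.97 for Arpp19, -0.69 for Olfm1, -0.58 for Camk2a and -0.86 for Ddn on the log2 scale. Between cortex and striatum they were 2.79 for Scn4b, 1.11 for Gabrd, 3.52 for Adora2a, 2.51 for Pde10a and 1.28 for Kcnj4. Between cortex and hippocampus they were -3.13 for Adam33, -0.85 for Camk2n1, -1.35 for Arpp19, 1.91 for Homer3 and 1.12 for Scn3b.

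The WT library that was left out held Slc6a5 at 404 CPM and Ttr at 2568 CPM, which mark the hindbrain and the choroid plexus.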

How the results depend on the processing

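Against 9076 calls, DESeq2 gave 8925, RLE scaling 8998, no low-count filter 9121, a minimum of 1 CPM 8613, no sex term 8632, the 7 libraries alone 8651 and total counts 10356. Leaving out each replicate gave 7860 to 8597, and adding WT replicate 1 gave 6275, all within 1.5 times. The replicate block gave 8995, and same-numbered WT and 175Q libraries correlated at 0.035, 0.010 and -0.038 in their deviations, so that the numbers do not pair these separate mice. The age difference fell from 2237 to 449 genes with WT replicate 1 added, was 2843 by DESeq2 and was 2923 without a low-count filter, and ran from 1768 to 2159 over libraries left out. The striatal difference ran from 847 to 2233 over the mice left out, with 847 without WT replicate 2 and 851 without WT replicate 4. The hippocampal one ran from 985 to 1552, with 985 and 1049 without the same mice. Counted per gene and alternative, 2703 fold changes kept direction and side of the threshold, 68 lost the call, 31 gained it and 12 reversed. With WT replicate 1 added Sostdc1 (-0.15), Kcne2 (-1.38), Kcnj13 (-0.84), Ttr (-0.23), Cfap126 (-0.013), Hoxb5 (-1.76), Slc6a5 (-2.93) and Hoxa5 (-1.64) reversed. All of these but Cfap126 are choroid plexus or medulla markers that were high in that library, so adding it to WT was bound to lower their fold changes. Ttr also reversed under the replicate block (-0.41) and without 175Q replicate 1 (-1.98), Col1a1 without WT replicate 4 (0.012) and Atxn1 without 175Q replicate 3 (-0.011). Over the replicates left out Ttr ran from -1.98 to 4.91, Col1a1 from -0.50 to 0.012 and Atxn1 from -0.011 to 0.073. Scaled by total counts, Atxn1 passed as higher (0.16, adjusted p = 0.0344, edgeR). The cause of these changes was not tested. Counts over lists kept within 1.5 times in 1100 cases and moved further in 116. Rises from 0 WT counts are lower bounds set by depth.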
